A study of Caenorhabditis elegans with 2 samples.

Results

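The 10 genes described here encode the MCM2-7 replicative helicase (mcm-2, mcm-3, mcm-4, mcm-5, mcm-6 and mcm-7), 3 factors that place the helicase on DNA at replication origins (orc-2, cdc-6 and cdt-1), and the sliding clamp PCNA (pcn-1). They were chosen by name, with earlier results of these data known, and all 10 were found among the 19985 protein-coding genes of the annotation. The binding measured is that of CEH-91, a C. elegans homeobox protein, by chromatin immunoprecipitation and sequencing (ChIP-seq), which recovers and counts the DNA fragments that a protein holds. The worms were of strain RW12305, genotype st12305[ceh-91::TY1::EGFP::3xFLAG] III, in which CRISPR inserted a TY1, EGFP and 3xFLAG tag at the gene's own locus, so every sample carried the tag. Both samples were whole young adults, 62.5 hours old, synchronised by starving L1 larvae after bleaching. Chromatin was sonicated to a labelled size range of 200 to 800, and an anti-GFP antibody was used, although 1 label field names ceh-91 as the antibody. The 2 samples are biological replicates of 1 group, with no word on how each was grown, and the deposited notes name the same 1 control alignment for both. There is thus no second genotype or treatment to compare, and the comparisons are between genes, lists and replicates.

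Before a cell can copy its DNA, the origin recognition complex marks origins, and CDC-6 and CDT-1 then help it load MCM2-7 rings onto the DNA, a step called licensing. In S phase the loaded rings are turned into active helicases that unwind the double strand, and the PCNA ring holds the polymerases on the template. In adult worms, most cycling cells are in the germline. Whole-worm chromatin does not separate tissues, so binding in fewer cells and weaker binding per cell cannot be told apart.

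The authors deposited 4 comparisons, each as a ranked list of all candidate peaks and a thresholded list of those with a global irreproducible discovery rate of at most 0.01. This rate estimates the share of peaks, down to the one in question, that would not repeat between the 2 inputs of a comparison. Some ranked peaks under that rate, 88 in the conservative comparison, are not in the thresholded list. The conservative list, made from the replicates, had 1612 listed of 53026 ranked peaks, the pooled list 1716 of 50055, replicate 1 had 1180 of 35497 and replicate 2 had 974 of 37659. Library depth is unknown, because peak lists carry no read counts. A gene is called bound when a listed summit, the highest point of a peak, lies from 1000 bp upstream to 200 bp downstream of one of its transcript starts. The signal is the authors' own value per peak and has no stated unit.

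CEH-91 peaks stood at the promoters of all 6 helicase genes and of pcn-1, and at none of the 3 loading genes. The same 7 of 10 genes were bound in the conservative list, where 7.37% of all protein-coding genes were bound. They were also the 7 bound genes in the pooled list, against 7.65% of all genes, in replicate 1, against 6.06%, and in replicate 2, against 5.32%. At these genes the pooled list held the same peaks and signals as the conservative list, so it is not a separate measurement. Both replicates listed a summit at these 7 genes, against 4.57% of all genes. The 10 genes were chosen with earlier results of these data known, so these counts describe them and test nothing. The 7 bound genes had a median signal of 285 in the conservative list (range 161 to 652), against a median of 149 over all 1473 bound protein-coding genes, and 7 of 7 were above that median. In replicate 1 the medians were 182 at the 7 genes and 109 at all bound genes, with 5 of 7 above. In replicate 2 they were 100.6 and 70.9, with 4 of 7 above.

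**Figure D1:**
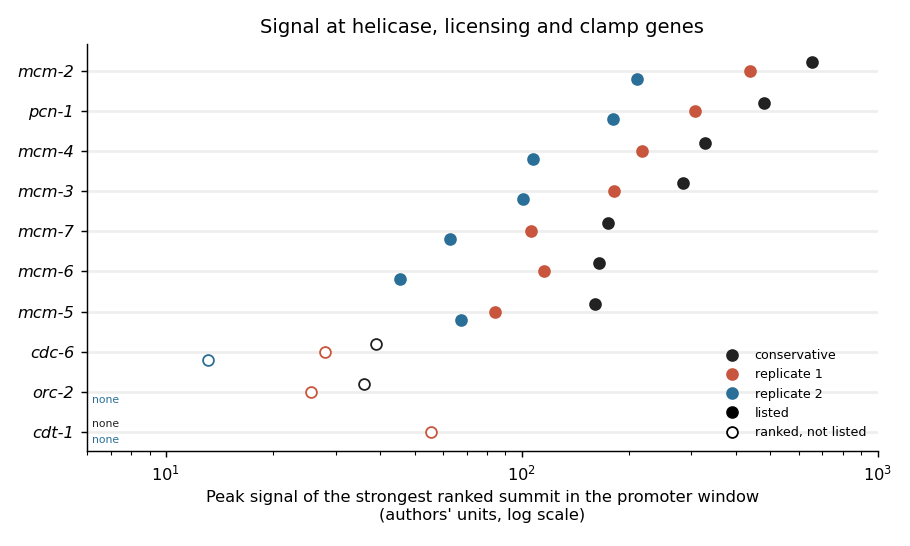
Signal of the strongest ranked summit in the promoter window of each gene (log scale, authors' units), in the conservative comparison and in each replicate. Filled points were listed, open points were ranked only, and "none" marks a window with no ranked summit. The 7 bound genes run from 161 to 652 in the conservative comparison, and the 2 unbound genes with a ranked summit there are at 36.1 and 38.9.

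The signals of the helicase subunits were graded, with mcm-2 well above the others, and are described here as 3 higher and 3 lower. mcm-2 had a signal of 652 in the conservative list, of 437 in replicate 1 and of 210 in replicate 2. Its peak (II:12006737-12006990) ranked 35 of 1612 by signal, the highest of the 10 genes in each list. mcm-4 had 327 in the conservative list, with 217 in replicate 1 and 108 in replicate 2 (I:2321892-2322062, rank 154). mcm-3 had 285 in the conservative list, with 182 in replicate 1 and 100.6 in replicate 2 (V:15059658-15059806, rank 197). The 3 peaks had the lowest rate in the conservative list, 1e-05, which 310 listed peaks share, so the rate does not order them further. All 3 were above the median of bound genes in every list.

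mcm-7, mcm-6 and mcm-5 lay closer to that median. mcm-7 had a signal of 174 in the conservative list, with 106 in replicate 1 and 62.7 in replicate 2 (V:4346850-4347159, rank 473). mcm-6 had 165 in the conservative list, with 115.5 in replicate 1 and 45.4 in replicate 2 (III:9793910-9794219, rank 508). mcm-5 had 161 in the conservative list, with 84.0 in replicate 1 and 67.6 in replicate 2 (III:4291291-4291600, rank 536). Their conservative rates were 5.23e-05, 0.000154 and 9.99e-05. mcm-7 and mcm-5 were below the median of all bound genes in both replicates, and mcm-6 was below it in replicate 2. The clamp gene pcn-1 was second only to mcm-2, with 480 in the conservative list, 307 in replicate 1 and 181 in replicate 2 (IV:4049553-4049808, rank 77, rate 1e-05).

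The DNA under the summits is shown for 6 of the 7 bound genes, because a short run of letters recurs in it. The line of mcm-4 is left out, although mcm-4 also holds that run. Each line is the RefSeq genome sequence of WBcel235 (ce11) on the strand of the gene, centred on the conservative summit, with 50 bp on either side for 5 genes and 100 bp for mcm-6, whose nearest match lies farther out. Capitals mark GCGCGAA, the overlapping GGCGCGA, and the related GCGGGAA, on either strand. These are letters that resemble the sites of E2F factors, the regulators of S phase genes in animals. No line shown holds GCGGGAA, which was found only at mcm-4.
mcm-2 (chrII:12006816-12006916, minus strand): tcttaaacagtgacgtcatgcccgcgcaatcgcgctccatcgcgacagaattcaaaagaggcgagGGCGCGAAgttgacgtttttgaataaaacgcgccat
pcn-1 (chrIV:4049643-4049743, minus strand): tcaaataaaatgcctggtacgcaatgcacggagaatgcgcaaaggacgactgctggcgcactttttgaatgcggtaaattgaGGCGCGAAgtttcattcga
mcm-3 (chrV:15059694-15059794, minus strand): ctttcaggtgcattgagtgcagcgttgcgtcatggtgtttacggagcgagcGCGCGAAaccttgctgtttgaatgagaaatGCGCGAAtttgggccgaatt
mcm-7 (chrV:4346955-4347055, plus strand): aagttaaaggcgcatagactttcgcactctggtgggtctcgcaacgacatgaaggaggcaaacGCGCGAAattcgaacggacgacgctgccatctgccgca
mcm-6 (chrIII:9793965-9794165, plus strand): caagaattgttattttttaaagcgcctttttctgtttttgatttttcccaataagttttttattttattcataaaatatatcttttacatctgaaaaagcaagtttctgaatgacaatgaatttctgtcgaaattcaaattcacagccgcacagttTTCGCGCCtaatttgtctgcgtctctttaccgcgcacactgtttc
mcm-5 (chrIII:4291396-4291496, minus strand): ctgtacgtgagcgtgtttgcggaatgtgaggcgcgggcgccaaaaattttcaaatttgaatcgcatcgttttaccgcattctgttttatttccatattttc
The mcm-2 and pcn-1 lines hold the same 8 capitals in the same direction, and mcm-6 holds them on the other strand. mcm-3 holds GCGCGAA at 2 places. mcm-5 has no capitals, so none of these exact letters is in its line. Other forms of E2F-like sites were not searched.

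Within 100 bp of the summit and on both strands, GCGCGAA was present at 6 of the 7 bound genes, all but mcm-5. It was present at 13.6% of all 1114 listed promoter summits and at 2.00% of the 14229 ranked promoter summits that did not pass. These letters were chosen after the sequences had been seen, so the count describes the 7 genes and tests nothing. The middle of the match nearest the summit lay 4 bp away at mcm-3, 14 at mcm-4, 16 at mcm-7, 19 at mcm-2, 36 at pcn-1 and 59 at mcm-6. The match pointed along the gene at 5 of these 6 genes and against it at mcm-6. At mcm-7 and mcm-6 the summit may be only the centre of a fixed 310 bp window, so those 2 distances are less certain. The mcm-7 summits of the 2 replicates were 44 bp apart.

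Of the 4 short sequences set with the gene lists, GGCGCGA, which overlaps GCGCGAA in 6 letters, was at 3 of 7 genes (mcm-2, mcm-6 and pcn-1), against 7.09% of listed and 1.30% of other ranked promoter summits. GCGGGAA was at 1 of 7, mcm-4, against 9.34% and 3.18%. TTTGAA, the letters of the cell cycle homology region that the DREAM complex is known to bind in mammals, was at 6 of 7, all but mcm-7, against 50.6% and 39.2%. TAATTA, a core that many homeodomains are known to bind, was at 0 of 7, against 8.26% and 7.60%. These letters being absent says only that they are not in this window. GCGCGAA and TTTGAA were both present at 5 of 7 genes, against 7.45% of listed and 0.878% of other ranked promoter summits, a pair also chosen after the sequences were seen. At mcm-2 and mcm-3, 9 bases separated GCGCGAA from a TTTGAA downstream of it, and at mcm-4 it was 3 bases. At pcn-1 the closest TTTGAA lay 14 bases upstream, and at mcm-6 it lay 17 bases upstream. The bases within 50 bp of the summit had a median G+C content of 51.5% at the 7 genes (25.7% at mcm-6 to 56.4% at mcm-4), against 45.5% at listed promoter summits and 39.6% at those that did not pass. Within 100 bp of the summit, where the shares above were counted, these 3 medians were 43.8%, 38.8% and 38.8%. The shares were not matched on G+C content.

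All 7 summits lay upstream of the start, in intergenic sequence. The conservative summit was 142 bp upstream at mcm-4, 145 at mcm-3, 161 at mcm-7, 180 at mcm-5, 241 at mcm-2, 245 at pcn-1 and 302 at mcm-6. The median was 180 bp at the 7 genes, against 220 bp over all listed promoter peaks. The 3 weaker helicase peaks were 310 bp wide, the width of 1256 of the 1612 listed peaks, and in 1255 of these the summit is at the middle, so it may stand for the centre of a fixed window. The peaks at mcm-2, pcn-1, mcm-4 and mcm-3 were narrower than that.

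**Figure D2:**
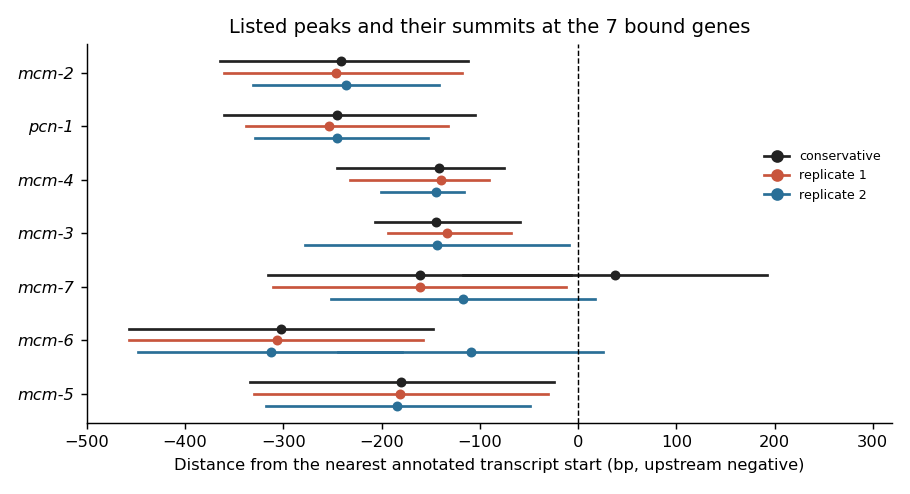
Extent (line) and summit (point) of each listed peak at the 7 bound genes, as distance from the nearest annotated transcript start in bp (upstream negative), in the conservative list and in each replicate. The strongest summit of each gene is upstream in all 3 lists. mcm-7 in the conservative list and mcm-6 in replicate 2 have a second, overlapping peak.

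At 3 of the 7 genes the peak stood between divergent starts whose windows both held its summit, and 38.2% of all listed promoter peaks (426 of 1114) had starts of both strands in the window. mcm-3 and C25D7.15 start 209 bp apart in opposite directions, and the summit is 64 bp from C25D7.15 and 145 bp from mcm-3. mcm-6 starts 725 bp from R10E11.9, and mcm-7 starts 741 bp from hpo-18. Those 2 peaks are nearer to the helicase gene, by 302 against 423 bp at mcm-6 and by 161 against 580 bp at mcm-7. At mcm-4 and mcm-5 the nearest upstream gene lies on the same strand, Y39G10AR.32 ending 208 bp and nth-1 ending 277 bp before the start. The pcn-1 peak lies 313 bp from the end of wrt-5 and the mcm-2 peak 2206 bp from glb-29. A shared peak cannot be given to 1 gene from its position alone.

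Second listed peaks appeared at 2 of the genes. In the conservative list mcm-7 had another summit 38 bp inside the gene, with a signal of 16.9 and a rate of 5.27e-05 (V:4347049-4347358). It overlapped the main mcm-7 peak by 111 bp and named the same input peaks of both replicates. In replicate 2 mcm-6 had another summit 109 bp upstream, with a signal of 17.9. Its inputs too were those of the main mcm-6 peak, which it overlapped by 66 bp. Those inputs, III:9794097-9794352 and III:9793878-9794133, overlapped each other only in part. Each of these low-signal peaks had a rate close to that of the stronger peak it overlapped. In the conservative comparison the windows of 5 of the 7 genes also held ranked summits that were not listed, 6 in all, with signals of 19.5 to 47.5 and rates of 0.611 to 0.898.

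The 3 loading genes had no listed summit in any of the 4 lists. cdc-6 encodes the ATPase that joins the origin recognition complex to start loading. Its strongest ranked summit had a signal of 38.9 in the conservative comparison, with 28.0 in replicate 1 and 13.2 in replicate 2, and rates of 0.679, 0.652 and 0.934. That summit stands 285 bp upstream of cdc-6 and 94 bp upstream of acin-1, which starts 379 bp away on the other strand. The nearest listed summit of the conservative list was 84256 bp from cdc-6, and those of the pooled list, replicate 1 and replicate 2 were 59800, 54483 and 84236 bp away. Any ranked summit, whatever its rate, was present in the conservative comparison at 9 of the 10 genes and at 52.0% of all protein-coding genes.

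orc-2 encodes a subunit of the origin recognition complex. Its ranked summit, 332 bp upstream, had a signal of 36.1 and a rate of 0.898 in the conservative comparison, and 25.6 and 0.909 in replicate 1, while replicate 2 had none in the window. A listed peak (II:10872615-10872924) had its summit 1161 bp upstream of orc-2, just outside the window, with a signal of 149, against 88.1 in replicate 1 and 49.3 in replicate 2. That summit is 109 bp upstream of copz-1 and 159 bp upstream of cyn-4, divergent genes that it lies between. copz-1 lies on the strand of orc-2 and ends 135 bp before orc-2 starts. With a window of 2000 bp upstream to 500 bp downstream, orc-2 would count as bound, which raises the members to 8 of 10, where 9.27% of all genes are bound.

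cdt-1 encodes the licensing factor that brings MCM2-7 to the origin. It had a ranked summit in replicate 1 only, 3 bp upstream of the start, with a signal of 55.5 that exceeded 95.7% of the ranked peaks there. Its rate of 0.0211 was above the threshold of 0.01. The conservative, pooled and replicate 2 comparisons ranked no summit in the cdt-1 window, and the nearest listed conservative summit was 15405 bp away, at fog-1. By the strongest summit of each gene, the lowest bound and highest unbound signals were 161 and 38.9 in the conservative comparison. They were 84.0 and 55.5 in replicate 1, and 45.4 and 13.2 in replicate 2. Listing decides which genes are called bound, so this gap is no separate result, and it was not compared with other genes. The second listed mcm-7 peak, at 16.9 in the conservative list, was below the cdc-6 and orc-2 summits there. A listed peak has a rate of at most 0.01 whatever its signal, although some ranked peaks under that rate were not listed.

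**Figure D3:**
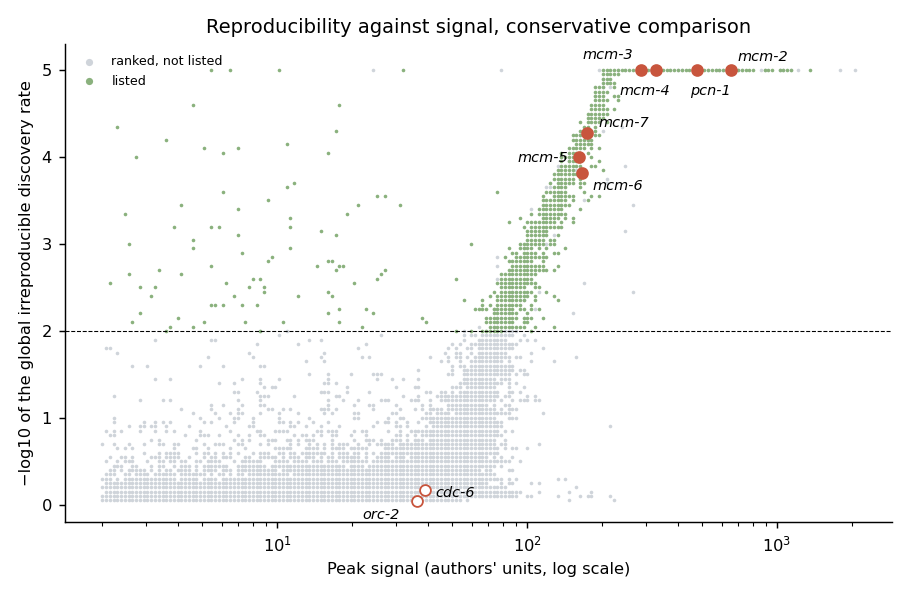
Signal (log scale, authors' units) against the −log10 of the global irreproducible discovery rate for the conservative comparison, with all ranked peaks drawn on a grid of rounded values. The dashed line is a rate of 0.01 and red points are the strongest summits of the genes described. mcm-2, pcn-1, mcm-4 and mcm-3 sit at the lowest rate of 1e-05, mcm-7, mcm-5 and mcm-6 at 5.23e-05 to 0.000154, and orc-2 and cdc-6 (open) at 0.898 and 0.679. cdt-1 had no summit to draw.

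The order of the 7 signals was partly the same in both replicates. The log2 ratio of neighbours in the order was 0.36 ± 0.21 for mcm-2 over pcn-1, 0.62 ± 0.18 for pcn-1 over mcm-4, 0.18 ± 0.11 for mcm-4 over mcm-3 and 0.73 ± 0.065 for mcm-3 over mcm-7 (mean ± SD, n = 2 replicates). These 4 steps had 1 direction in both replicates and were larger than their SD. The order is that of the conservative list, whose signals derive from both replicates, so this agreement is partly built in. An SD of 2 values is also a rough measure of spread. mcm-7 over mcm-6, at 0.17 ± 0.41, and mcm-6 over mcm-5, at −0.06 ± 0.73, changed direction between replicates, so mcm-7, mcm-6 and mcm-5 did not differ beyond their spread.

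All 7 genes had a higher signal in replicate 1 than in replicate 2. The log2 difference had a median of 0.85 (0.31 at mcm-5 to 1.35 at mcm-6), against a median of 0.74 (SD 0.35) over all 784 listed peaks shared by the replicates. The scaling behind these signals is not given in the sources used here, and how much of the difference is scaling was not tested. mcm-6 moved most. Its signal exceeded 63.9% of listed peaks in replicate 1 and 14.9% in replicate 2, whereas pcn-1 exceeded 93.5% and 93.1%. The summits of the 2 replicates were 3 to 44 bp apart at the 7 genes, with a median of 9 bp, against 15 bp over all shared peaks, and mcm-7 had the widest gap.

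**Figure D4:**
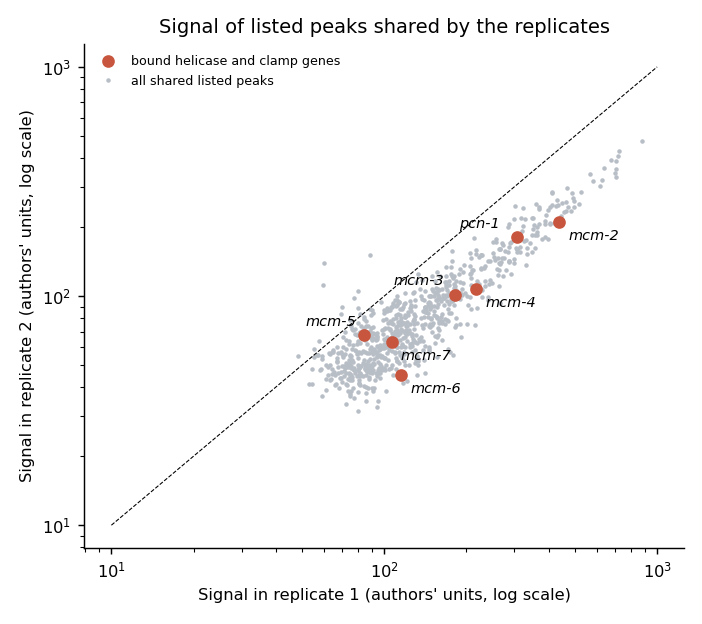
Signal in replicate 1 (x) and replicate 2 (y) of the 784 listed peaks that overlap between the replicates (grey), both log scales in the authors' units, with the 7 bound genes in red and the line of equal values dashed. All 7 lie below the line. Of the 7, mcm-6 is the farthest below it, at 115.5 and 45.4, and mcm-5 the nearest, at 84.0 and 67.6.

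Genes adjacent in signal place these values in the conservative list. The peak 1 rank above mcm-2 was shared by klp-16 and smn-1 (661), and the peak 1 rank below by nmat-2 and rab-5 (643). Around mcm-3 stood Y48G1C.8 (285.04) and the peak of cey-2 and xrep-4 (284.4). The peak of cdk-1 and iff-1 (174.5) ranked 1 above mcm-7, and that of gpr-1 and polk-1 (174.25) 1 below. par-5 (476) ranked below pcn-1 and C27F2.7 (326.6) below mcm-4. mcm-6 followed K08F4.3 and gtbp-1 (165.4), and mcm-5 stood between F10E9.5 with F10E9.7 (161.5) and Y75B12B.11 (160.7). Where no gene is named on 1 side of pcn-1, mcm-4 and mcm-6, the adjacent peak had no protein-coding start in its window.

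The other replication genes were bound in part. Across 4 further lists, 29 of 51 genes were bound in the conservative list (56.9%), against 7 of the 10 genes above and 7.37% of all protein-coding genes. The count was 27 in the pooled list, 26 in replicate 1 and 22 in replicate 2. The lists, too, were chosen with earlier results of these data known, so the shares are a description only. Among other origin recognition and licensing control genes, 4 of 8 were bound. gmn-1, which encodes the CDT-1 inhibitor geminin, had a signal of 258, and cul-4, the cullin known in worms to degrade CDT-1, had 202. Of the recognition complex genes, orc-5 had 144 and orc-1 had 96.5 and was listed in the conservative comparison alone, while orc-3 and orc-4 were not bound, as orc-2 was not. ddb-1 and cdt-2 were not bound either.

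Of 12 genes for helicase activation and origin firing, 7 were bound, with signals of 101.1 to 227. ctf-4, which is named for the yeast factor that links helicase and primase, had 227. The mitotic kinase gene cdk-1 had 175, and the GINS subunit genes psf-3 and psf-1 had 166 and 130. The cdk-1 summit lay 577 bp upstream, in a peak shared with iff-1. The other GINS genes, psf-2 and sld-5, were not bound, nor were mus-101, cdc-7 and cdk-2. Of these genes, 7 were bound in replicate 1 and 4 in replicate 2. cdc-45 and dbf-4 matched no symbol of the annotation and are not counted.

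Of 21 genes for primase, polymerases and handling of the clamp, 13 were bound, with signals of 84.5 to 1041. rpa-2 and rpa-1, which encode subunits of the single-strand binding protein RPA, had 1041 and 499 in the conservative list, both above pcn-1. Their summits lay far from the start, 653 bp upstream at rpa-2 and 534 bp at rpa-1, beyond a window of 500 bp. In replicate 1 rpa-1 had 287 and pcn-1 had 307. rnr-1, the large subunit of ribonucleotide reductase, had 307, and tim-1, the worm timeless homologue, had 300.5. The clamp loader genes rfc-2 and rfc-3 were not bound, nor were div-1, pri-1, pold-1, pole-2, ctf-18 and tipn-1.

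Of 10 E2F and DREAM genes, the regulators known for S phase gene control in worms, 5 were bound. lin-9 had 723, lin-53 had 500.2, lin-54 had 466 and lin-35, the worm retinoblastoma homologue, had 289.8. Each of these 4 had a signal above that of mcm-3 in the conservative list, although in replicate 1 lin-35 had 174.5 and mcm-3 had 181.9. They were named for having the highest signals of this list, and do not stand for all DREAM genes. The other genes of the list, given next, were weaker or not bound. lin-52 was bound too, at 96.6, in the conservative and pooled lists but in neither replicate. The E2F genes efl-1, efl-2 and efl-3, the E2F partner gene dpl-1, and lin-37 were not bound. In the conservative comparison efl-1 had a ranked summit of 77.3 at a rate of 0.0219, not far above the threshold of 0.01. lin-37 had one of 46.6 at a rate of 0.183, and efl-2, efl-3 and dpl-1 had none.

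**Figure D5:**
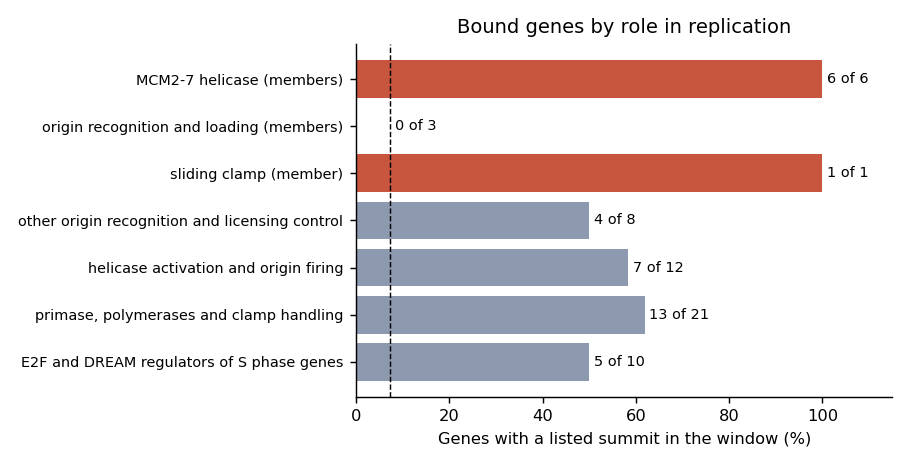
Percent of the genes in each list with a listed summit in the promoter window, conservative list, with the count beside each bar. Red bars are the genes described here, grey bars the other replication lists, and the dashed line is the 7.37% of all protein-coding genes. The helicase bar stands at 6 of 6, the loading genes at 0 of 3 and the other lists between 50% and 61.9%.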

How the data were processed

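The 2 samples form 1 group, and each replicate, like the whole series, has a ranked and a thresholded peak list. Per the labels the assembly is ce11. Neither aligner nor peak caller is named (not given in the sources used here). The authors deposited a signal per peak, the −log10 of a q-value (not used) and the −log10 of the global irreproducible discovery rate, per the file layout. Peaks were called per replicate and on pooled samples, since 58.4% of the inputs of the conservative ranked list had the coordinates of replicate peaks, against 0% in the list read as pooled pseudoreplicates. The labels do not name the inputs of the replicates' own comparisons. Peaks were checked to end within WBcel235 chromosomes, then assigned to transcript starts of Ensembl release 115. Coordinates are 1-based. Peaks shared by the replicates overlap by at least 1 bp. Short sequences were searched in the RefSeq genome of WBcel235. No test was run, since there is 1 group, so counts of members are read against the percentage of all protein-coding genes. The code was tested on simulated data.

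The members and lists were chosen with earlier results of these data known. All 10 members are named, as are genes sharing their peaks, genes adjacent in signal rank, and up to 4 other genes per list by signal. The unbound genes of each list were added after their values were seen, as were lin-52 and copz-1 with cyn-4. Alternatives changed the window, the assignment, the threshold, the list, the replicate, the overlap and the sequence window. Python 3.11.15, numpy 2.4.6, pandas 2.3.3 and matplotlib 3.10.9 were used.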

Additional observations from a re-analysis of the deposited data

How the results depend on the processing

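The 7 bound genes were the same 7 with a window of 500 bp upstream to 100 bp downstream (5.86% of all protein-coding genes bound), with the peak interval in place of the summit (7.73%), with a rate of at most 0.001 (5.45%) or 0.05 (9.21%), and in the pooled list (7.65%). The pooled list repeats the conservative peaks and signals at these genes, with only the rates differing. Leaving out replicate 1 or replicate 2 means reading the other replicate's own list, already described above, so it is no separate check. It gave 7 bound genes each time, and 22 and 26 of the 51 other replication genes. In these lists 5.32% and 6.06% of all genes were bound. The count of bound genes was 6 where a summit went only to its nearest start (4.63% of all genes), which lost mcm-3 to C25D7.15. It was 8 in the wide window (9.27%), which added orc-2, and 9 with every ranked peak (52.0%), which added orc-2 and cdc-6. The other replication genes numbered 17 of 51 with the nearest start only and 46 with every ranked peak, against 29, while all genes bound went to 4.63% and 52.0%, against 7.37%. These other genes numbered 25 with the window of 500 bp upstream (5.86% of all genes) and 32 in the wide window (9.27%). At rates of at most 0.001 and 0.05 the numbers were 24 (5.45%) and 32 (9.21%). Counting every ranked peak and searching GCGCGAA, alone or with TTTGAA, were chosen after seeing the data. The 7 genes were shared by the replicates at an overlap of 50% of the shorter peak and with summits within 50 bp. Within 50 bp of the summit GCGCGAA was at 5 genes, losing mcm-6, GGCGCGA at 2 and GCGGGAA at 0. No paired analysis was possible because there is 1 group. Depth limits cannot be given, as the lists hold no read counts, and the shared control was not analysed here.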
